A study of Oryza sativa with 4 samples.

Results

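Among rice loci, 45 of 55985 listed were at least 6-fold higher in chilled than in untreated seedlings of the japonica cultivar Nipponbare, while their ratio in the indica cultivar 93-11 was at most 2. The ratios were taken from the deposited RPKM values (reads scaled to gene length and to library total) after adding 1 to each, and loci at 0 in both 93-11 libraries were left out. The 4 groups were Nipponbare chilled, Nipponbare untreated, 93-11 chilled and 93-11 untreated, with 1 library each. All seedlings were 15 days old, grown in flooded pots of soil under glass with 28 °C days and 25 °C nights. The chilled ones were moved to 4 °C ± 1 for 33 h. Aerial parts were pooled for each library, so the values carry no spread between plants. The labels do not say how many seedlings entered a pool, and they give no harvest hour.

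Rice is a plant of warm climates, and cold that does not freeze it is enough to injure seedlings. Chilling is sensed at membranes and through calcium signals, and transcription factors such as those of the DREB1 family then raise genes for membrane, sugar and protective proteins. Japonica cultivars as a group tolerate chilling better than indica cultivars, which is why a locus that responds in Nipponbare and not in 93-11 is of interest to breeders. The files and the reference table used here attach no name or function to any of the 45 identifiers, so the loci are described by identifier, level and position. The first digits of an identifier give the chromosome. Its last 5 digits rise in order along the chromosome but skip numbers, so they do not count loci.

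Library totals, worked out from the values, were 13482486 reads in chilled Nipponbare, 12671333 in untreated Nipponbare, 13012799 in chilled 93-11 and 16682882 in untreated 93-11. The antenna protein locus CAB1R, a marker of green tissue, was at 13.4 RPKM in chilled and 4474 RPKM in untreated Nipponbare, and at 52.1 RPKM in chilled and 5019 RPKM in untreated 93-11. CAB2R, another of these loci, was at 90.7 and 6205 RPKM in Nipponbare and 58.7 and 6389.8 RPKM in 93-11, chilled and untreated. Both shoot meristem markers, OSH1 and OSH15, were at most 0.0721 RPKM in every library, and both root markers, LSI1 and an HKT2 locus, were at most 6.09 RPKM. In bulk tissue, fewer cells of a type and less RNA per cell cannot be told apart. The sources used here do not say to which cultivar's genome the 93-11 reads were aligned. A low level in 93-11 and reads of 93-11 that could not be aligned therefore cannot be told apart.

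The cultivars shared most of the strong responses, and the 45 loci are those with the smallest ratios in 93-11. Of 32803 loci above 0 in either 93-11 library, 774 (2.36 percent) were at least 6-fold higher in chilled Nipponbare. In 93-11, 567 of these were also at least 6-fold higher, 162 lay between 2 and 6, and 45 (5.81 percent of the 774) were at most 2. The 45 were 0.137 percent of the 32803 loci. Turned round, the same rule gave 61 loci higher mainly in chilled 93-11, where 912 loci (2.78 percent) were at least 6-fold higher.

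**Figure D1:**
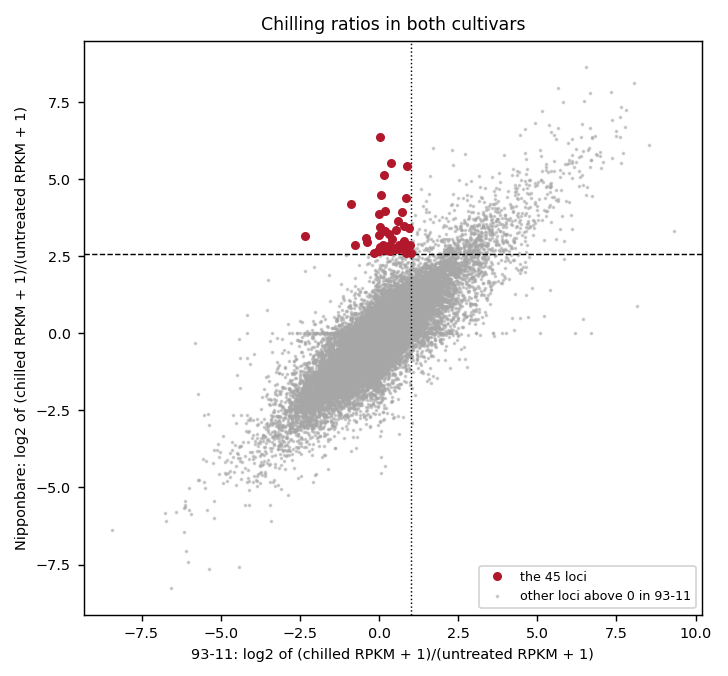
Each point is a locus above 0 in either 93-11 library. The vertical axis is the log2 ratio of chilled to untreated RPKM + 1 in Nipponbare and the horizontal axis the same in 93-11, with the limits of the rule at 6-fold (dashed) and 2-fold (dotted). The 45 loci (red) fill the upper left, where the limits cut them off from other loci just outside. LOC_Os01g64120 lies farthest left among the 45 at a 93-11 ratio of 0.197.

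Values near the limits show how narrowly some loci entered or missed. Just inside the Nipponbare limit were LOC_Os11g47710 (ratio 6.1), LOC_Os01g47070 (6.14) and LOC_Os01g27880 (6.16). LOC_Os06g48570 (5.99), LOC_Os04g06520 (5.95) and LOC_Os02g06400 (5.91) lay just outside. The second of these, LOC_Os04g06520, was at 77.0 and 12.1 RPKM in chilled and untreated Nipponbare and at 0.289 and 0.508 RPKM in chilled and untreated 93-11, so it had the pattern of the set in all but size. At the 93-11 limit, LOC_Os11g47710 (2.0), LOC_Os12g03040 (1.98) and LOC_Os11g43760 (1.94) were inside, and LOC_Os07g49114 (2.04), LOC_Os09g34150 (2.04) and LOC_Os02g37280 (2.09) were outside. A further 16 loci passed both folds but were listed at 0 in both 93-11 libraries. They were led by LOC_Os01g27340, at 61.3 and 0.175 RPKM in chilled and untreated Nipponbare.

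The set was defined by chilled Nipponbare: in the other 3 libraries its typical level was low. Over the 45 loci the lowest, median and highest levels were 5.4, 22.4 and 936 RPKM in chilled Nipponbare, against 0, 0.871 and 83.6 RPKM in untreated Nipponbare. In 93-11 they were 0.0398, 0.965 and 173 RPKM when chilled, against 0, 0.696 and 112 RPKM when untreated. On the log2(RPKM + 1) scale the median change was 2.96 in Nipponbare and 0.36 in 93-11, where that over all 36941 loci above 0 was -0.03 in Nipponbare and -0.02 in 93-11. These medians follow from the rule and carry no test. The 567 loci at least 6-fold higher in both cultivars were more abundant, with a median of 72.4 RPKM in chilled Nipponbare and 87.8 RPKM in chilled 93-11.

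**Figure D2:**
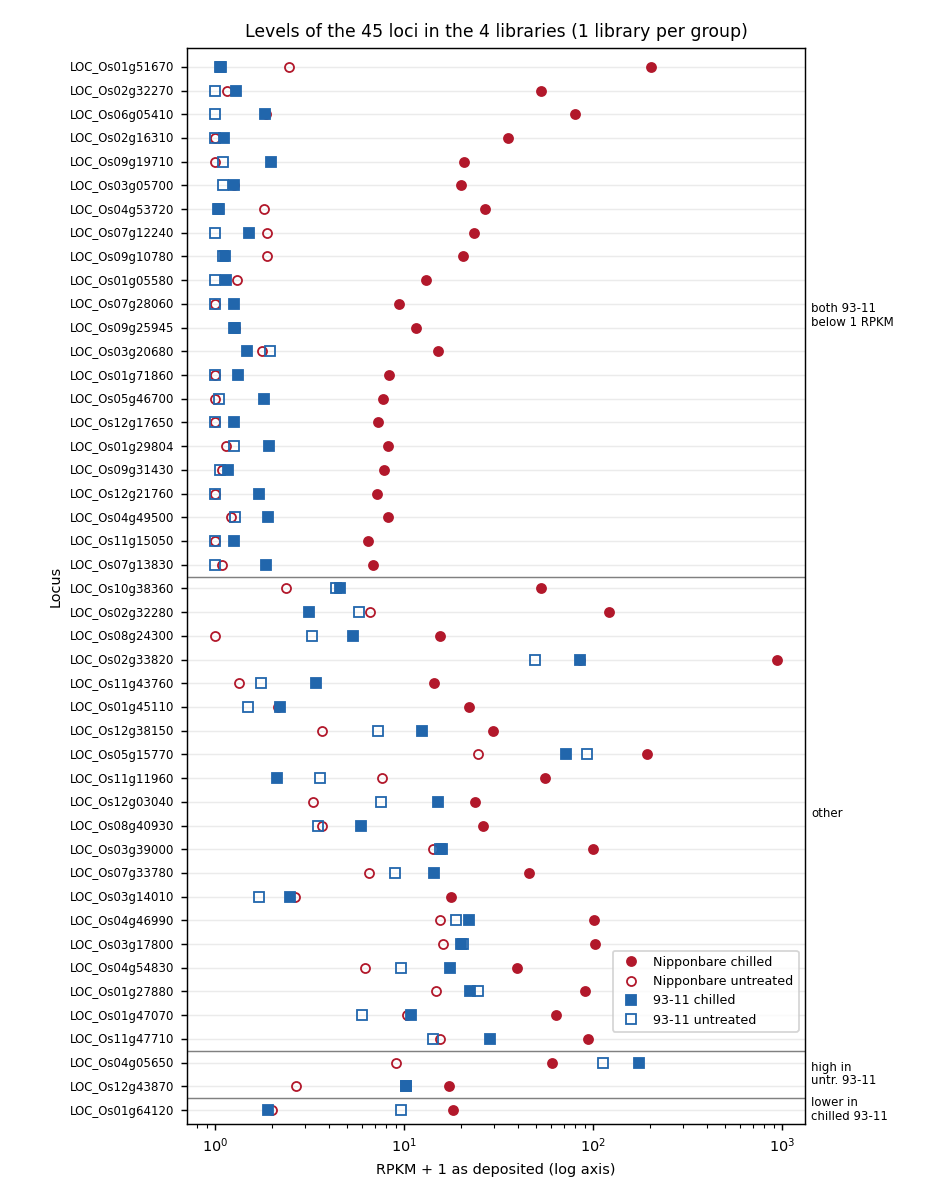
Level of each of the 45 loci as RPKM + 1 on a log axis, 1 point per library: Nipponbare (red circles) and 93-11 (blue squares), chilled (filled) and untreated (open). Lines separate the 22 loci below 1 RPKM in both 93-11 libraries, 20 other loci, 2 that were high in untreated 93-11 and 1 that was lower in chilled than in untreated 93-11. The filled red circle is the highest of the 4 points in every row but that of LOC_Os04g05650.

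By their levels in 93-11 the loci were sorted into 4 patterns. Both 93-11 libraries were below 1 RPKM at 22 of the 45 loci. Such low levels were also common among all loci, at 40.5 percent of the 32803. LOC_Os01g51670, on chromosome 1, had the highest Nipponbare ratio of the whole set. It stood at 202 RPKM in chilled Nipponbare and 1.47 RPKM in untreated Nipponbare, against 0.0752 RPKM in chilled 93-11 and 0.0587 RPKM in untreated 93-11. Those values rest on 2788 and 19 reads in Nipponbare and on 1 read in each 93-11 library. Chilling was thus accompanied by an 82.4-fold difference in RPKM + 1 in Nipponbare, with practically no reads from this locus in 93-11 at either temperature.

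Loci of chromosomes 2 and 6 came next. LOC_Os02g32270 was at 51.7 and 0.148 RPKM in chilled and untreated Nipponbare, and at 0.288 and 0 RPKM in chilled and untreated 93-11. LOC_Os06g05410 was at 78.8 and 0.849 RPKM in Nipponbare, chilled and untreated, and at 0.826 and 0 RPKM in 93-11. LOC_Os02g16310 had 34.2 RPKM in chilled Nipponbare, 0 in untreated Nipponbare, 0.108 RPKM in chilled 93-11 and 0 in untreated 93-11. All 3 were thus nearly off outside chilled Nipponbare. In reads, chilled Nipponbare held 372, 395 and 328 of them, in that order, and chilled 93-11 held 2, 4 and 1.

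Other loci of the same pattern had a moderate level in chilled Nipponbare. LOC_Os04g53720 was at 25.7 and 0.817 RPKM in chilled and untreated Nipponbare, against 0.0398 and 0.0465 RPKM in chilled and untreated 93-11, and LOC_Os07g12240 at 22.4 and 0.871 RPKM against 0.509 and 0 RPKM. LOC_Os09g19710 was at 19.8 and 0 RPKM in Nipponbare and 0.965 and 0.1 RPKM in 93-11, chilled and untreated. LOC_Os09g10780 had 19.4 and 0.867 RPKM against 0.121 and 0.0941 RPKM, and LOC_Os03g05700 had 19.0 and 0.262 RPKM against 0.255 and 0.0996 RPKM, in the same order. These loci sit on 4 different chromosomes, and only their levels were compared. LOC_Os03g20680 was at 14.0 and 0.774 RPKM in Nipponbare, chilled and untreated. Its untreated 93-11 level, at 0.95 RPKM, was above its chilled 93-11 level, at 0.464 RPKM. Those 93-11 levels rest on 21 and 8 reads, and the counting interval of the log2 ratio of reads held no change (-2.42 to 0.2). At LOC_Os04g53720 untreated 93-11 was also slightly above chilled 93-11.

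The remaining 12 loci of this pattern, all between 5.4 and 12.1 RPKM in chilled Nipponbare, were the weakest of the set. The highest were LOC_Os01g05580, at 12.1 and 0.296 RPKM in chilled and untreated Nipponbare, and LOC_Os09g25945, at 10.6 and 0.269 RPKM. LOC_Os07g28060 (8.4 RPKM), LOC_Os01g71860 (7.3), LOC_Os05g46700 (6.76), LOC_Os12g17650 (6.27), LOC_Os12g21760 (6.18) and LOC_Os11g15050 (5.4) had no read at all in untreated Nipponbare. LOC_Os12g21760 rests on just 9 reads in chilled Nipponbare and 1 in chilled 93-11. LOC_Os01g29804 (7.24 and 0.136 RPKM in Nipponbare, chilled and untreated), LOC_Os04g49500 (7.24 and 0.211), LOC_Os09g31430 (6.86 and 0.0864) and LOC_Os07g13830 (5.87 and 0.0868) complete the group.

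The rule adds 1 RPKM before dividing, so a locus that stays below 1 RPKM in 93-11 passes the 93-11 limit whatever its ratio of reads. LOC_Os07g13830 shows this. It had 72 and 1 reads in chilled and untreated Nipponbare and 10 and 0 reads in chilled and untreated 93-11. LOC_Os05g46700 had 120 and 0 reads in Nipponbare and 14 and 1 in 93-11, chilled and untreated. LOC_Os04g49500 had 329 and 9 against 39 and 15, and LOC_Os01g29804 had 113 and 2 against 14 and 5. At these 4 loci chilled 93-11 also exceeded untreated 93-11 beyond counting error, at a much lower level than in Nipponbare, and so it did at LOC_Os01g71860 and LOC_Os09g19710. Chilled 93-11 stayed under 1 RPKM at each of them. The response was also smaller in 93-11 at LOC_Os04g49500, where the log2 ratios of reads differed by 3.32 (95% counting interval 2.06 to 4.58), and at LOC_Os01g29804, by 3.66 (1.36 to 5.95).

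The 20 loci of the next pattern reached at least 1.13 RPKM in chilled 93-11, and most were measured on many reads in both cultivars. LOC_Os02g33820 had the highest level of the 45 in chilled Nipponbare. Its level was 936 RPKM in chilled Nipponbare and 83.6 RPKM in untreated Nipponbare, against 83.6 RPKM in chilled 93-11 and 48.0 RPKM in untreated 93-11. In reads the log2 ratio of chilled to untreated was 3.48 in Nipponbare (95% counting interval 3.39 to 3.58) and 0.80 in 93-11 (0.66 to 0.95). Chilled 93-11 thus only reached the level of untreated Nipponbare. Under both trimmed mean of M-values (TMM) and upper quartile scaling of the libraries this locus no longer met the rule.

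LOC_Os05g15770 and LOC_Os02g32280 differed in where 93-11 stood before chilling. LOC_Os05g15770 was at 191 and 23.6 RPKM in chilled and untreated Nipponbare, and at 70.7 and 91.3 RPKM in chilled and untreated 93-11. Untreated 93-11 thus already held more of this transcript than untreated Nipponbare. LOC_Os02g32280 was at 120.3 and 5.55 RPKM in Nipponbare and 2.12 and 4.73 RPKM in 93-11, chilled and untreated. Here the untreated levels were alike and the cultivars parted on chilling. LOC_Os10g38360 was at 51.9 and 1.36 RPKM in Nipponbare, chilled and untreated, and nearly level in 93-11, at 3.58 and 3.34 RPKM.

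A run of loci near 100 RPKM in chilled Nipponbare had closely similar profiles. LOC_Os03g17800 was at 101 and 15.0 RPKM in Nipponbare and 19.0 and 19.5 RPKM in 93-11, chilled and untreated. LOC_Os04g46990 was at 100.4 and 14.5 RPKM against 21.1 and 17.8 RPKM, and LOC_Os03g39000 at 98.5 and 13.2 RPKM against 14.8 and 14.5 RPKM. LOC_Os01g27880 was at 89.3 and 13.7 RPKM against 21.3 and 23.7 RPKM. In these 4 loci the untreated levels of both cultivars and chilled 93-11 all lay between 13.2 and 23.7 RPKM, with chilled Nipponbare alone above. LOC_Os11g47710 (93.2 and 14.4 RPKM in Nipponbare, chilled and untreated) and LOC_Os01g47070 (62.7 and 9.38 RPKM) had similar Nipponbare levels. In 93-11 they were higher when chilled, at 27.3 and 9.79 RPKM, than when untreated, at 13.2 and 5.0 RPKM.

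LOC_Os11g11960 was at 54.7 and 6.64 RPKM in chilled and untreated Nipponbare, and at 1.13 and 2.57 RPKM in chilled and untreated 93-11, so it was low in 93-11 throughout. LOC_Os12g03040 (22.7 and 2.27 RPKM in Nipponbare, 14.0 and 6.56 RPKM in 93-11, chilled and untreated), LOC_Os12g38150 (28.5 and 2.69 against 11.4 and 6.23 RPKM), LOC_Os07g33780 (44.6 and 5.49 against 13.3 and 7.88 RPKM) and LOC_Os04g54830 (38.4 and 5.2 against 16.4 and 8.65 RPKM) shared another profile. At each of them the order was chilled Nipponbare, chilled 93-11, untreated 93-11 and untreated Nipponbare, from high to low. Their smaller ratio in 93-11 thus went with a higher untreated level there as well as a lower chilled level. LOC_Os08g40930 (25.2 and 2.68 against 4.91 and 2.51 RPKM) and LOC_Os03g14010 (16.7 and 1.64 against 1.49 and 0.696 RPKM) began at similar or higher levels in untreated Nipponbare. LOC_Os01g45110 (20.9 and 1.15 against 1.2 and 0.497 RPKM) did so too. The last of the 20 were LOC_Os11g43760 (13.3 and 0.328 against 2.4 and 0.748 RPKM) and LOC_Os08g24300 (14.5 and 0 against 4.35 and 2.26 RPKM), with 31 reads of LOC_Os08g24300 in chilled Nipponbare.

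A further 2 loci made up the third pattern, in which untreated 93-11 was already at 0.5 times the level of chilled Nipponbare or more without being lower when chilled. LOC_Os04g05650 was at 59.7 and 8.09 RPKM in chilled and untreated Nipponbare, and at 173 and 112 RPKM in chilled and untreated 93-11. It was the only one of the 45 with more transcript in chilled 93-11 than in chilled Nipponbare. LOC_Os12g43870 was at 16.3 and 1.69 RPKM in Nipponbare, chilled and untreated, and at 9.17 RPKM in both 93-11 libraries. Chilled Nipponbare passed the level that 93-11 held without chilling at LOC_Os12g43870, while at LOC_Os04g05650 it stayed below.

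A single locus, LOC_Os01g64120, differed in opposite directions in the 2 cultivars by more than 2-fold on the RPKM + 1 scale. Its level was 17.0 RPKM in chilled Nipponbare and 0.998 RPKM in untreated Nipponbare, against 0.891 RPKM in chilled 93-11 and 8.59 RPKM in untreated 93-11. The reads were 217 and 12 in Nipponbare and 11 and 136 in 93-11. Here too untreated 93-11 was at more than 0.5 times the level of chilled Nipponbare. Across the 32803 loci, 15.1 percent were at most 0.5 times as high in chilled as in untreated 93-11 on the RPKM + 1 scale.

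With 1 library per group there is no replicate test, and the rule itself used all 4 libraries. Precision can be given only for counting error, from the recovered reads. The Nipponbare log2 ratio lay above 2-fold over its whole 95% interval at 44 of the 45 loci, against 9.60 percent of the 32803. The exception was LOC_Os12g21760, with an interval starting at 0.89 on the log2 scale. For the 9 loci without a read in untreated Nipponbare the ratio was also taken against a floor of 3 reads in that library. It ran from 2.82-fold at LOC_Os12g21760 to 103-fold at LOC_Os02g16310. These values leave out the counting error of the chilled reads. The exact 95% intervals of both loci began lower, at log2 ratios of 0.89 and 6.38.

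The 93-11 side of the rule was much less precise. The 93-11 interval excluded a 6-fold ratio at 23 loci and reached it at 22, of which 20 were below 1 RPKM in both 93-11 libraries. No matching share of the 32803 loci was taken, so these counts describe precision within the set only. At 18 of the 45 loci the 93-11 interval lay wholly above no change (22.8 percent of the 32803) and at 4 wholly below (31.2 percent). The other 23 intervals held no change. So a smaller response in 93-11 than in Nipponbare was resolved by counting at only part of the set. With reads in all 4 libraries there were 31 loci, and at 31 of these the difference of the log2 ratios, Nipponbare minus 93-11, lay above 0 over its whole 95% Wald interval, against 17.3 percent of all loci with reads in all 4. That share is fixed largely by the rule, and the Wald interval is approximate where reads are few. The exact intervals of the 2 cultivars overlapped at LOC_Os01g51670, LOC_Os03g05700, LOC_Os09g10780 and LOC_Os09g31430, which had few reads in 93-11. At LOC_Os01g51670 they were 6.46 to 7.84 in Nipponbare and -5.94 to 6.65 in 93-11. Over the 31 loci the differences ran from 1.64 at LOC_Os11g47710 (1.35 to 1.93) to 7.24 at LOC_Os01g64120 (6.05 to 8.44), with a median of 3.18. For the 14 loci with 0 reads somewhere, the exact intervals of the 2 cultivars overlapped at 13.

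**Figure D3:**
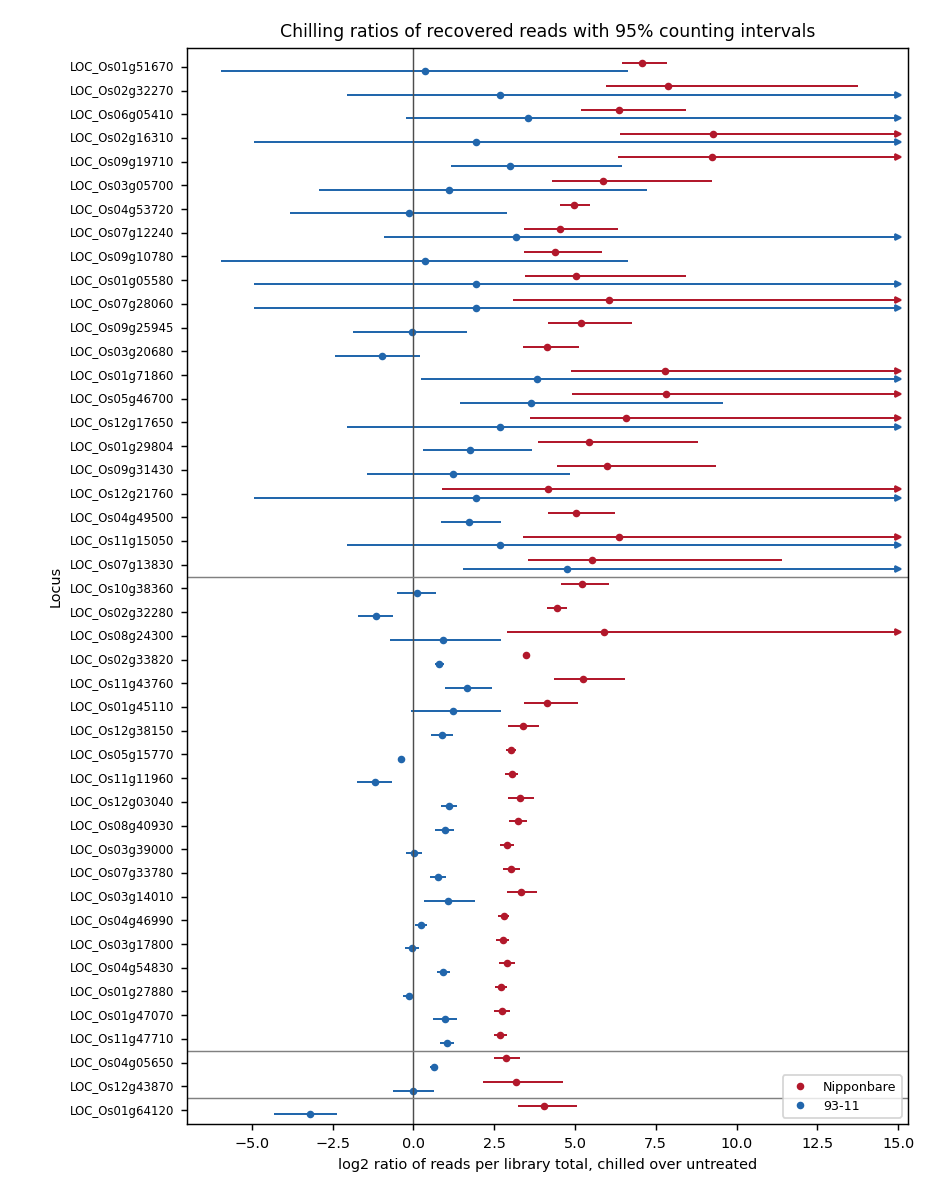
Log2 ratio of recovered reads, chilled over untreated and per library total, for each of the 45 loci, in Nipponbare (red) and 93-11 (blue). Points have 0.5 reads added, bars are exact 95% counting intervals and arrowheads mark bars with no upper end because untreated seedlings had 0 reads. In the upper block (22 loci below 1 RPKM in 93-11) the blue bars are wide and often overlap the red ones, and in the lower blocks the colours are mostly apart.

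Chilled and untreated levels were then set side by side between cultivars. Among chilled libraries, Nipponbare was above 93-11 beyond 2-fold by the whole counting interval at 40 of the 45 loci (4.71 percent of the 32803), with a median log2 ratio of 3.48. LOC_Os08g24300, LOC_Os12g03040, LOC_Os12g21760 and LOC_Os12g43870 were higher in Nipponbare by intervals that began below 2-fold, and LOC_Os04g05650 was lower. The rule used these values, so that count is a description. In untreated seedlings the loci differed in both directions, with a median log2 ratio of 0.13, and 25 of the 45 intervals held equality. The share of the 32803 loci whose interval held equality was not taken, so that count only describes the set. Untreated Nipponbare was higher beyond 2-fold at 3 loci (4.55 percent of the 32803), namely LOC_Os01g51670, LOC_Os04g53720 and LOC_Os11g11960. It was lower beyond 2-fold at 5 (2.60 percent). These were LOC_Os01g64120, LOC_Os04g05650, LOC_Os05g15770, LOC_Os12g03040 and LOC_Os12g43870. The widest untreated gap was at LOC_Os01g51670, with a log2 ratio of 4.10 (1.99 to 10.02) in favour of Nipponbare, and the widest the other way at LOC_Os04g05650, at -3.78 (-4.19 to -3.42).

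By identifier, the 45 loci were spread over all 12 chromosomes. Chromosome 1 held 8 of them (17.8 percent, where it holds 13.3 percent of the 32803 loci). Chromosomes 3, 4 and 12 held 5 each (11.1 percent, against 11.9, 9.06 and 6.01 percent). Chromosomes 2, 7, 9 and 11 had 4 each (8.89 percent, against 10.7, 7.74, 5.7 and 6.37 percent). Chromosomes 5 and 8 had 2 each (4.44 percent, against 8.3 and 6.9 percent). Chromosomes 6 and 10 had 1 each (2.22 percent, against 8.12 and 5.67 percent). Only LOC_Os02g32270 and LOC_Os02g32280 had another of the 45 within 50 identifier numbers, and the same pair was found within 20 and within 100. Identifier numbers skip between neighbouring loci, so each of these windows holds fewer loci than its number. No run of 3 or more neighbours occurred.

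Neighbours outside the set were then examined, 3 loci to each side in identifier order, a window chosen after the values were seen. Of 264 such flanking loci, 12 (4.55 percent) were at least 6-fold higher in chilled than in untreated Nipponbare, against 790 (1.42 percent) of the 55800 numbered loci. In 93-11, 10 (3.79 percent) were, against 1.63 percent of the numbered loci. The 12 lay beside 10 of the 45 loci. In 93-11, 7 of the 12 were at least 6-fold higher too, where 567 of 774 were over all loci above 0 in either 93-11 library. Among the flanking loci 25.0 percent were at 0 in all 4 libraries, against 33.9 percent of the numbered loci. The median flanking locus had a log2 change of 0 in Nipponbare and 0 in 93-11.

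A stretch of chromosome 2 was the clearest block. LOC_Os02g32250, listed just before LOC_Os02g32270, was at 275 and 29.7 RPKM in chilled and untreated Nipponbare, against 12.4 and 3.66 RPKM in chilled and untreated 93-11. Its 93-11 ratio of 2.87 kept it out of the set, so 3 successive listed loci were 8.99-fold or more higher in chilled Nipponbare and at most 2.87-fold higher in chilled 93-11. On chromosome 6, LOC_Os06g05420, next to LOC_Os06g05410, was at 52.0 and 1.18 RPKM in Nipponbare, chilled and untreated, and was left out because both 93-11 libraries list it at 0. Both members of that pair were thus detected almost only in Nipponbare.

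LOC_Os08g40919, beside LOC_Os08g40930, was far more abundant than its neighbour in the set, at 749 and 10.7 RPKM in chilled and untreated Nipponbare against 11.0 and 2.65 RPKM in chilled and untreated 93-11. On chromosome 1, both neighbours of LOC_Os01g64120 had larger ratios in Nipponbare as well. LOC_Os01g64110 had ratios of 13.9 in Nipponbare and 3.42 in 93-11, and LOC_Os01g64130 of 15.4 and 3.0. Unlike LOC_Os01g64120, neither was lower in chilled than in untreated 93-11. LOC_Os11g47680, which is 3 loci before LOC_Os11g47710, was at 70.6 and 15.2 RPKM in Nipponbare, chilled and untreated, against 2.02 and 11.4 RPKM in 93-11. It missed the set with a Nipponbare ratio of 4.42. Whether reads were shared between such neighbours, as near-identical copies or overlapping gene models can do, was not tested.

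Some neighbours were at least 6-fold higher in both cultivars. LOC_Os04g46970, which is 2 loci before LOC_Os04g46990, was at 154 and 0.277 RPKM in chilled and untreated Nipponbare and at 233 and 0.42 RPKM in chilled and untreated 93-11. LOC_Os04g49510, next to LOC_Os04g49500, was at 634 and 29.8 RPKM in Nipponbare and 694 and 32.3 RPKM in 93-11, chilled and untreated. LOC_Os08g24310, next to LOC_Os08g24300, had ratios of 10.6 in Nipponbare and 9.3 in 93-11. LOC_Os07g13800, which is 2 loci before LOC_Os07g13830, went the other way, with ratios of 1.48 in Nipponbare and 37.2 in 93-11.

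**Figure D4:**
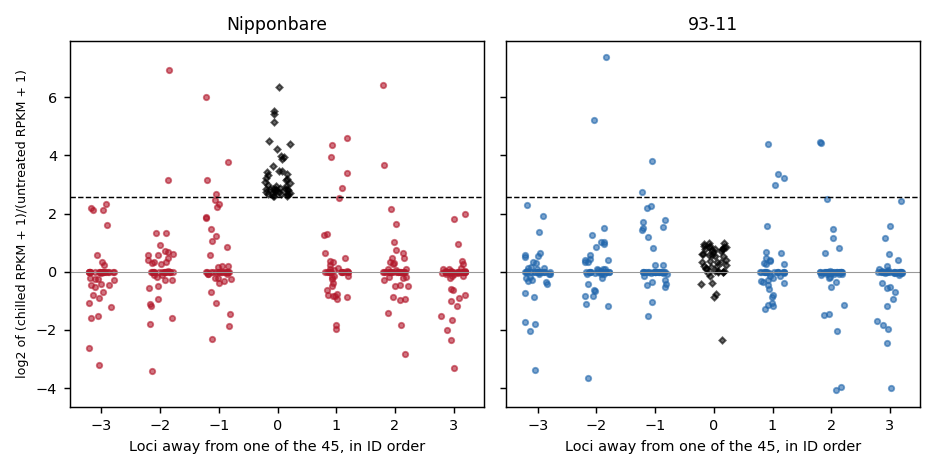
Log2 ratio of chilled to untreated RPKM + 1 for the 45 loci (black diamonds at 0) and for the loci up to 3 places before (negative) and after (positive) in identifier order, in Nipponbare (left) and 93-11 (right). The dashed line is 6-fold. Most neighbours sit near 0 in both cultivars, and the few above the line in Nipponbare, 12 of 264, are scattered over offsets of 1 and 2.

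Loci of known cold, hormone and defence genes were looked up in the set. Names were paired with identifiers from general knowledge and kept where the reference table places the name on the same chromosome. Names missing from that table were left out. Among these, SNAC1, WRKY45 and ZFP182 had ratios of 54.2, 32.7 and 83.2 in Nipponbare and 83.7, 68.3 and 197 in 93-11. RAB16A, PR1A and PR1B, also left out, were at least 6-fold higher in neither cultivar. Of the 37 kept loci in 8 lists, 0 were among the 45, where 0.137 percent of the 32803 loci were, so a count of 0 says little about the set. Of the 37, 9 were at least 6-fold higher in chilled Nipponbare, 15 in chilled 93-11 and 8 in both. Over the 32803 loci, 2.36 percent were so in Nipponbare and 2.78 percent in 93-11. Of 6 DREB regulators, which bind cold-response promoter elements, 0 were at least 6-fold higher in Nipponbare and 4 in 93-11. DREB1A, at 9.84 and 1.07 RPKM in chilled and untreated Nipponbare, had a ratio of 5.24 there with 1 RPKM added. DREB1B, at 5.97 and 0.563 RPKM, had 4.46, and the other 4 had Nipponbare ratios between 1.37 and 2.98. Of 7 TIFY repressors of jasmonate signalling, 4 were at least 6-fold higher in both. Among 6 cold-related MYB, NAC and WRKY factors 3 were in Nipponbare and 4 in 93-11, and among 4 abscisic acid genes 2 were in both. Of 3 dehydrin and LEA genes, 0 were in Nipponbare and 1 in 93-11. Neither the 8 diterpenoid phytoalexin genes, the 1 pathogenesis-related gene nor the 2 light-harvesting genes held any. The gene nearest to the rule, chosen after its values were seen, was NCED3 (LOC_Os03g44380), which encodes an enzyme of abscisic acid synthesis. It was at 16.2 and 2.48 RPKM in chilled and untreated Nipponbare, against 7.94 and 4.85 RPKM in chilled and untreated 93-11.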

How the data were processed

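The 4 libraries were made from oligo(dT)-selected RNA and read on an Illumina HiSeq machine (labels' protocols). The authors deposited 1 RPKM value per locus and library. Per the submitters' processing notes, the tools were HTSeq 0.5.4p3, TopHat2 2.0.9 and Bowtie2 2.0.6, whose roles the notes leave out. The sources used here give no genome build, annotation or strand setting. Overlapping and antisense loci therefore cannot be told apart.

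The loci were selected with Python 3.11.15 (pandas 2.3.3, scipy 1.17.1) by 3 conditions on the deposited RPKM: a Nipponbare ratio of at least 6, a 93-11 ratio of at most 2, each with 1 RPKM added, and a value above 0 in at least 1 of the 93-11 libraries. The members and lists were chosen with earlier results of these data known. No test between conditions is given, since each group is 1 library and the rule used all 4.

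Whole reads were recovered by finding 1 whole length per locus and 1 whole total per library that turn every value into whole reads. All 36941 loci above 0 could be solved, and with totals shifted by 1 percent 0 of 500 could. Reads are known up to a common whole factor and sum to between 97.7 and 98.1 percent of the totals. The recovery and the exact intervals of ratios were tested on simulated data. The Wald intervals of differences were not. Ratios of reads have exact conditional binomial (Clopper-Pearson) 95% intervals, with 0.5 reads added to the point value, and differences of ratios have Wald intervals. Intervals and the floor of 3 reads describe counting error alone, because reads copied by PCR are no independent molecules.

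Loci described singly were the 12 with the highest Nipponbare ratios, the 12 highest in chilled Nipponbare, the 6 with the lowest 93-11 ratios and the 3 on either side of each limit. The others are given so that every member is accounted for. The reference table (RefSeq, ASM3414082v1) matched 0 of the loci by identifier and served only to check the chromosome of list names. No sequence could be matched to the identifiers, so none is printed. Alternatives were trimmed mean of M-values (TMM) and upper quartile scaling, pseudocounts of 0.1 and 5 RPKM, a filter of 1 RPKM in at least 2 libraries, and the counting intervals.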

Additional observations from a re-analysis of the deposited data

Results flagged for a closer look

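At 4 loci the cultivars moved in opposite directions, with the 93-11 counting interval wholly below no change and the Nipponbare interval wholly above it. Over all 32803 loci, 31.2 percent had a 93-11 interval wholly below no change. The share of loci that met both conditions was not taken, so the count of 4 has no matching background. The difference between cultivars was not tested, since each group is 1 library. In reads, the log2 ratios of chilled to untreated were 4.03 in Nipponbare and -3.21 in 93-11 (-4.31 to -2.38) at LOC_Os01g64120. They were 4.43 and -1.15 (-1.73 to -0.62) at LOC_Os02g32280, and 3.04 and -1.18 (-1.75 to -0.65) at LOC_Os11g11960. At LOC_Os05g15770 they were 3.01 and -0.37 (-0.47 to -0.27), on 3384 and 393 reads in Nipponbare and 1209 and 2003 in 93-11. Counting intervals leave out the choice of scaling, which raised log2 ratios in 93-11 by 0.23 (TMM) or 0.24 (upper quartile).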

How the results depend on the processing

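The size of the set depended on the 1 RPKM added before dividing. With a pseudocount of 0.1 there were 149 loci, 26 of them among the 45, and with 5 there were 16, 8 of them among the 45. The filter on low values left 24. Of these, 109, 4 and 1 were below 1 RPKM in both 93-11 libraries, where it was 22 of the 45. With TMM scaling 53 loci met the rule, with upper quartile scaling 57, and 39 of the 45 were kept under each. LOC_Os01g47070, LOC_Os02g33820, LOC_Os04g54830, LOC_Os11g43760, LOC_Os11g47710 and LOC_Os12g03040 were lost under both. LOC_Os01g51670, LOC_Os02g32280, LOC_Os05g15770 and LOC_Os10g38360 were the 4 loci that met the rule under both scalings and both other pseudocounts.

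Medians were recomputed over the same 45 loci, or over the 24 of them that the filter left, and not over newly selected loci. The median log2 change in Nipponbare was 3.13 with TMM, 3.18 with upper quartile scaling, 4.54 with a pseudocount of 0.1, 2.09 with 5 and 2.85 with the filter. In 93-11 it was 0.92 with 0.1, 0.09 with 5 and 0.55 with the filter. The median difference was 2.83 with upper quartile scaling, 3.41 with 0.1 and 1.70 with 5. TMM scaling shifted log2 ratios of chilled to untreated by 0.26 in Nipponbare and 0.23 in 93-11, and upper quartile scaling by 0.35 and 0.24. Requiring a Nipponbare interval beyond 2-fold kept 44 loci, and reads in all 4 libraries with a positive difference, added after seeing the data, kept 31. No paired analysis was possible because each group has 1 library. Few reads limit the precision of many ratios, as 12 of the 45 loci had at most 3 reads in both 93-11 libraries and 9 had none in untreated Nipponbare.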
